A study of Mus musculus with 6 samples.

Results

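A set of 45 genes that act at mitosis and at the G2/M transition were followed in the E18.5 cortex with and without Ybx1. The set was a list of gene names: mitotic cyclins and kinases, spindle checkpoint, kinetochore, spindle, condensin and cytokinesis genes. It was chosen with earlier results of these data known. All 45 listed genes were present in the deposited table of 17348 genes, and all 45 passed the filter on low counts, which kept 13570 genes. The cKO embryos carried Nestin-Cre and 2 floxed Ybx1 alleles (Ybx1 fl/fl), in which recombination removes exons 3 to 8. The controls are labelled WT, and the study's RNA-seq methods call them wild type littermates. Elsewhere the study describes its control littermates as Ybx1 fl/fl without Cre. Both groups were E18.5 embryos, 3 libraries each, and mRNA of the dissected cortex was sequenced. Nestin-Cre acts across the developing nervous system and not in cortical progenitors alone, so the neurons that descend from them are recombined too. The series' description speaks of biological replicates. It does not tie a library to an animal or litter, so the p-values measure the spread between these libraries.

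Cells enter mitosis when Cdk1 is switched on by A- and B-type cyclins. Aurora and Polo kinases then build the spindle, kinetochores tie the chromosomes to it, and the spindle checkpoint holds the anaphase-promoting complex (APC/C) back until every chromosome is attached. In the embryonic cortex these transcripts come mostly from radial glia dividing at the ventricle and from intermediate progenitors, while the far more numerous neurons have left the cycle. Many of the genes are transcribed together late in the cycle from promoters that carry a CHR element, read by the DREAM and MuvB complexes, and CCAAT boxes, bound by NF-Y. YBX1 was named after the Y box, an inverted CCAAT box, and is best known as an RNA-binding protein of the cytoplasm.

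These 2 short motifs were searched, on both strands, in the RefSeq promoter windows (GRCm38.p6) from 250 bases before to 50 bases after the annotated start. A window was found for 38 of the 45 genes. The CHR letters TTTGAA were present in 30 of the 38 (78.9%), against 4893 of 27025 windows of all genes (18.1%) and 1252 of 10792 windows of the genes tested (11.6%). The letters CCAAT were present in 28 of the 38 (73.7%), against 10248 (37.9%) and 4197 (38.9%). Both motifs were found in 25 (65.8%), against 1925 (7.12%) and 542 (5.02%), and neither in 5. A match describes the letters in the window and not a bound site. To show the arrangement, bases 110 before to 20 after the start are given for the kinase subunit Cdk1 (chr10:69352893-69353022), its partners Ccnb1 (chr13:100786467-100786596) and Ccnb2 (chr9:70421535-70421664), the APC/C activator Cdc20 (chr4:118437324-118437453) and Cenpf (chr1:189688067-189688196), the member with the lowest p-value. All 5 lie on the minus strand and are written 5′ to 3′ along the gene, with both motifs in capitals, on either strand.
Cdk1: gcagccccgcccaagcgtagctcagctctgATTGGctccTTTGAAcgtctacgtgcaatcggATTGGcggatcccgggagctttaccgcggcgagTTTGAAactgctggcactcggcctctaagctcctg
Ccnb1: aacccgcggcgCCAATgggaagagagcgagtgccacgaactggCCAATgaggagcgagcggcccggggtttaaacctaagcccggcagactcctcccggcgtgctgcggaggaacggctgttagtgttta
Ccnb2: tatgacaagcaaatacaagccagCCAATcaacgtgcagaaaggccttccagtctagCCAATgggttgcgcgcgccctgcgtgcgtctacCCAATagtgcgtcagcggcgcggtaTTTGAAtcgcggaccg
Cdc20: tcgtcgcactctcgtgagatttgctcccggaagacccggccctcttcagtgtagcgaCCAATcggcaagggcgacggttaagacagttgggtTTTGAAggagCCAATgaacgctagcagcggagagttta
Cenpf: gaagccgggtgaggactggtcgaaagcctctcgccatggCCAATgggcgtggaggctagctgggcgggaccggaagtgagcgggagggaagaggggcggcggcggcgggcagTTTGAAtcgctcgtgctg
Ccnb2 holds 3 CCAAT boxes, which begin 87, 54 and 21 bases before the start. Ccnb1 holds 2, at 99 and 67 bases before it, and no CHR letters in its window. In Cdk1 the boxes are inverted, and CHR letters begin 71 and 15 bases before the start. In Cenpf the CHR letters begin 3 bases after the start.

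**Figure D1:**
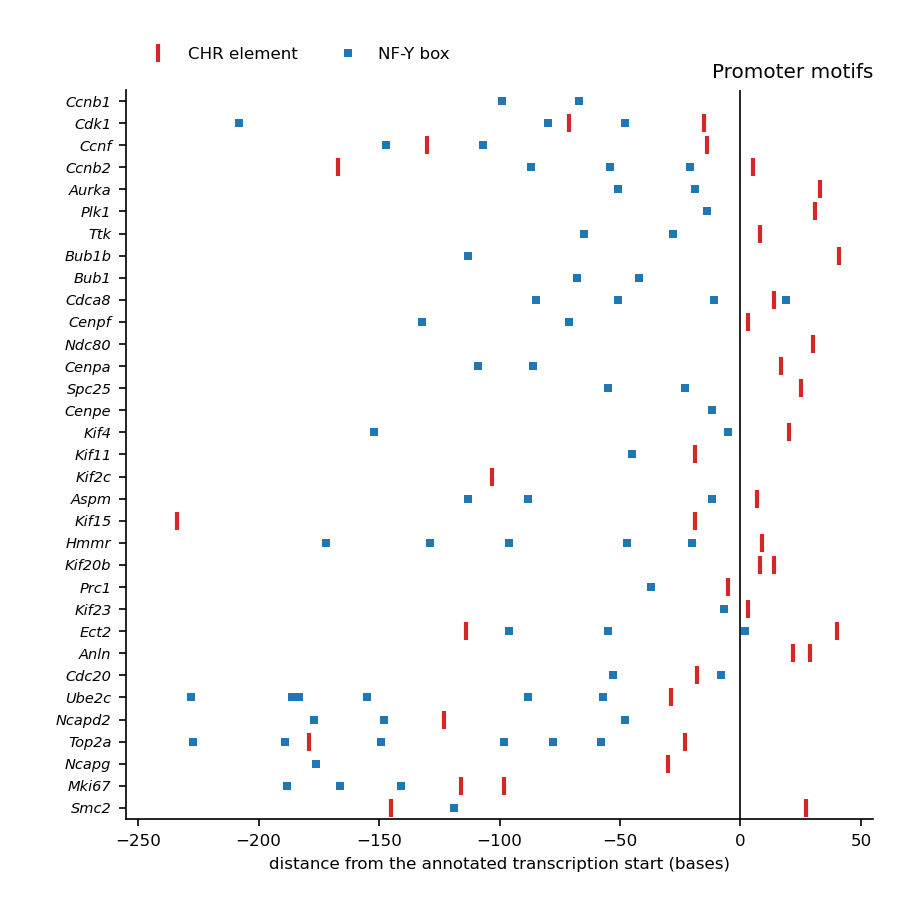
Position of each motif match (x axis, bases from the annotated start) in the promoter windows of the 33 genes with a match, in order of role. Red bars mark CHR letters and blue squares NF-Y boxes, and most of the NF-Y boxes lie before the start, with 41 of 67 in the last 100 bases before it.

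The median log2 fold change was -0.09 for the 30 genes with a CHR match and -0.10 for the 8 without, and -0.09 for both the 28 genes with and the 10 without a CCAAT match.

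The libraries held 15091951 to 16885451 estimated counts. Ybx1 itself was at 1010, 1300 and 956 CPM (edgeR's count per library total, TMM-scaled) in the controls and at 24.0, 24.8 and 24.9 in the cKO (log2 fold change -5.47, SE 0.16, edgeR adjusted p = 6.95e-07), so every library matched its label. All 12 radial glia markers and 7 of 8 intermediate progenitor markers were above 1 TPM in every library. Control 2 stood apart from the other controls: the chi-square per degree of freedom was 41.5 and 65.4 between it and controls 1 and 3, and 10.6 between those. Over all genes tested, control 2 was the highest library for 33.6% and the lowest for 33.9%, so the main counts and medians, and the fold changes that moved most, are also given without it.

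All of the mitosis genes were expressed, and none passed the test in the cKO. Mean TPM over the 6 libraries, a scale that corrects for transcript length, ran from 7.59 to 100 with a median of 18.1, and each gene had 91 to 3396 counts in a library. By edgeR's quasi-likelihood test, 0 of the 45 genes had an adjusted p under 0.05, where 0.0737% of all genes tested did. At an unadjusted p under 0.05, 1 gene was lower, where 3.49% of all genes were, and 0 were higher, where 3.14% were. DESeq2 also gave 0 at an adjusted and 1 at an unadjusted p, where 2.74% of all genes were lower and 2.24% higher at the unadjusted p. With limma on log2(TPM + 1), not recentred, it was 0 and 0, where 1.5% of all genes were lower and 8.83% higher. The gene with the unadjusted call was Cenpf, and the lowest adjusted p was 0.736.

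The log2 fold changes leaned slightly to the lower side. They were below 0 in 33 of 45 genes (73.3%), against 49.4% of all genes tested, with a median of -0.09 against 0.00, on the CPM scale. The members rise and fall with the cell cycle together, so the 33 are not separate observations. In 5 genes all cKO libraries were below all controls (Ccnb1, Aurka, Melk, Ttk and Ndc80), where 6.93% of all genes did so, and in 2 genes, Bub1 and Nuf2, all were above, where 7.35% did so. The fold changes ran from -0.34 in Cenpf to 0.26 in Anln. The 95% interval of each of the 45 genes lay inside a 2-fold change, and that of 34 genes inside a 1.5-fold change. Of the 45 intervals, 44 included 0. In bulk tissue fewer dividing cells and less RNA per dividing cell cannot be told apart.

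**Figure D2:**
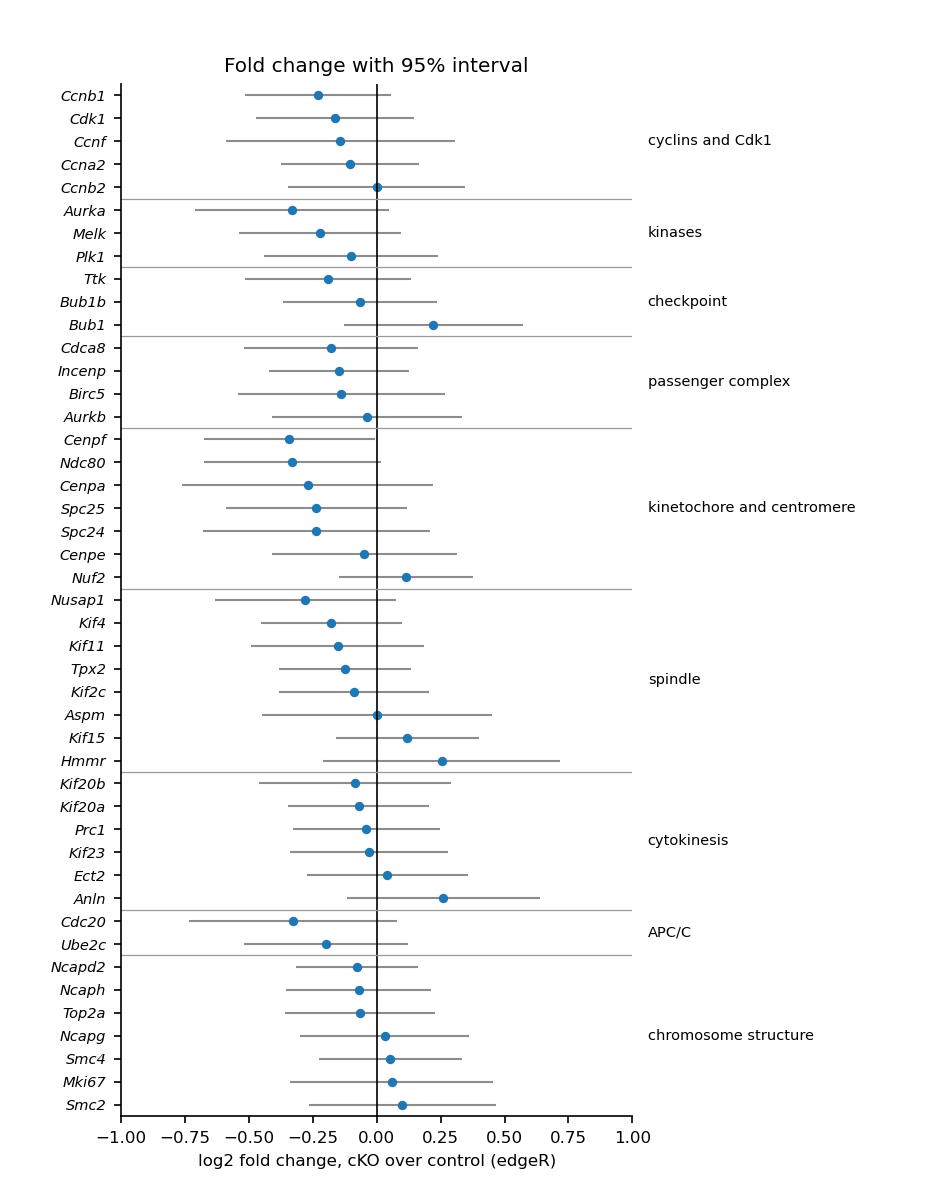
The x axis is the log2 fold change of cKO over control from edgeR, with 3 libraries per group, and each line is a 95% interval. Genes are ordered by role, and only the interval of Cenpf, from -0.68 to -0.01, lies to one side of 0.

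The summed level of all 45 genes gave the same picture of overlapping groups. The 45 genes together made up 1707, 1455 and 1594 CPM in the controls and 1515, 1491 and 1544 CPM in the cKO. Control 2 was below, and controls 1 and 3 above, all 3 cKO libraries. On the TPM scale the sums were 1149, 963.5 and 1083 against 1106, 1070 and 1112, so the mean was higher in cKO there (1096 ± 22.5 against 1065 ± 94, SD, n = 3). The mean TPM was higher in cKO for 29 of the 45 members (64.4%) and for 10629 of all genes tested (78.3%), so the lean to the lower side turns on that scale. TPM values set the median of all genes 0.14 higher in cKO than CPM values did on the log2 scale. The members' median difference on the log2(TPM + 1) scale was 0.06, against 0.14 for all genes, and relative to the shift it was -0.08. By role, the CPM sums of the kinetochore and centromere genes and of the kinases did not overlap. The kinetochore and centromere sums were 166.8, 146.8 and 158.1 in the controls and 134.2, 135.5 and 144.5 in the cKO. Those of the kinases were 42.13, 47.84 and 39.19 against 38.75, 36.32 and 36.65. The CPM sums of the other roles overlapped, as did the TPM sums of these roles.

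Of Cdk1 and the cyclins, the groups overlapped in all but Ccnb1. Cdk1, the kinase that drives entry into mitosis, was at 21.8, 23.2 and 18.6 CPM in the controls and 20.4, 17.4 and 19.0 in the cKO. Ccnb1, cyclin B1, was at 33.2, 27.9 and 29.3 CPM against 27.4, 23.1 and 26.6. Its groups did not overlap (log2 fold change -0.23, SE 0.13, edgeR adjusted p = 0.806), and with 3 libraries a side the exact permutation p cannot go below 0.1. Ccna2, cyclin A2, was at 55.8, 51.2 and 45 CPM against 49.4, 43.2 and 48.8. Ccnb2, cyclin B2, was at 15.7, 14.3 and 11.9 CPM against 15, 14.4 and 12.6, with the same mean of 14 in both groups. Ccnf, an F-box protein that limits the centrosome cycle, had a control range of 11.2 to 19.7 CPM, with the cKO libraries between 13.9 and 14.6. The median log2 fold change of the 5 genes was -0.14.

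Of the 3 kinases, Aurka and Melk had separate groups. Aurka, which matures centrosomes, was at 13.9, 17.8 and 12.1 CPM in the controls and at 11.8, 11.6 and 11.4 in the cKO (log2 fold change -0.33, SE 0.17, edgeR adjusted p = 0.795). The lowest control lay just above the highest cKO library, and the fold change was -0.16 without control 2 and -0.45 without control 3. Plk1, Polo-like kinase 1, was at 15.3, 18.9 and 14 CPM against 16.1, 14.6 and 14.3, so its groups overlapped. Melk, a kinase of proliferating progenitors, ranged from 11.2 to 13.1 CPM in controls and 10.1 to 10.9 in cKO.

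Of the 7 checkpoint and passenger genes, Bub1 alone had a log2 fold change above 0. The checkpoint kinases Bub1 and Ttk were separate in opposite directions: Bub1 was at 18.7, 13.9 and 19.5 CPM in controls and 19.7, 19.8 and 21.4 in cKO (log2 fold change 0.22, SE 0.15, edgeR adjusted p = 0.85), while Ttk ranged from 11.1 to 12.2 CPM and from 9.16 to 11.0. The checkpoint pseudokinase gene Bub1b overlapped, with a log2 fold change of -0.06. Aurkb, the kinase of the chromosomal passenger complex, was at 10.8, 14 and 10.1 CPM against 11.2, 10.8 and 12.1. The other members of that complex, Incenp, Birc5 and Cdca8, had log2 fold changes of -0.15, -0.14 and -0.18 with overlapping groups.

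With all 6 libraries, the lowest median among roles of at least 3 genes was that of the 7 kinetochore and centromere genes, at -0.24. The 2 APC/C genes had a median of -0.26. Without control 2 the kinetochore and centromere median was -0.13, and those of the spindle genes (-0.17) and the kinases (-0.16) were lower. Cenpf, a large protein of the outer kinetochore, lies at chr1:189640606-189688086 on the minus strand. It was at 60.6, 42.0 and 59.0 CPM in the controls and at 40.7, 42.6 and 44.1 in the cKO. Controls 1 and 3 were above every cKO library, and control 2 was among them (log2 fold change -0.34, SE 0.15, unadjusted p = 0.0468 and adjusted p = 0.736 by edgeR). Without control 2 its log2 fold change was -0.49 with an adjusted p of 0.0273 by edgeR. In that fit 122 of 13687 genes passed, where 10 of 13570 did with all 6 libraries. With all 6 libraries, and transcript length and GC content corrected for, Cenpf was at -0.42 (edgeR adjusted p = 0.0713) when length was the mean over its transcripts. It was -0.51 with an adjusted p of 0.0421 when length was that of the longest transcript, a definition added after the first had been seen. With the replicate number as a block, that p was 0.0524. The call for Cenpf thus changed with the library left out and with how length was defined.

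Ndc80, which binds microtubules at the kinetochore, was at 9.53, 8.49 and 8.70 CPM against 7.68, 6.61 and 6.96, with no overlap (log2 fold change -0.33, SE 0.15, edgeR adjusted p = 0.773). Its partner Nuf2 was at 19.5 ± 0.336 CPM in the controls and 21.1 ± 1.14 in the cKO (SD, n = 3), with no overlap in the other direction (log2 fold change 0.11, SE 0.12, edgeR adjusted p = 0.885). The 2 other subunits of that complex, Spc24 and Spc25, both had a log2 fold change of -0.24, which without control 2 was -0.04 and -0.13. Cenpa, the histone of centromeres, was at 15.2, 22.0 and 13.3 CPM against 11.2, 14.4 and 16.4, and Cenpe, a kinetochore motor, had a log2 fold change of -0.05.

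**Figure D3:**
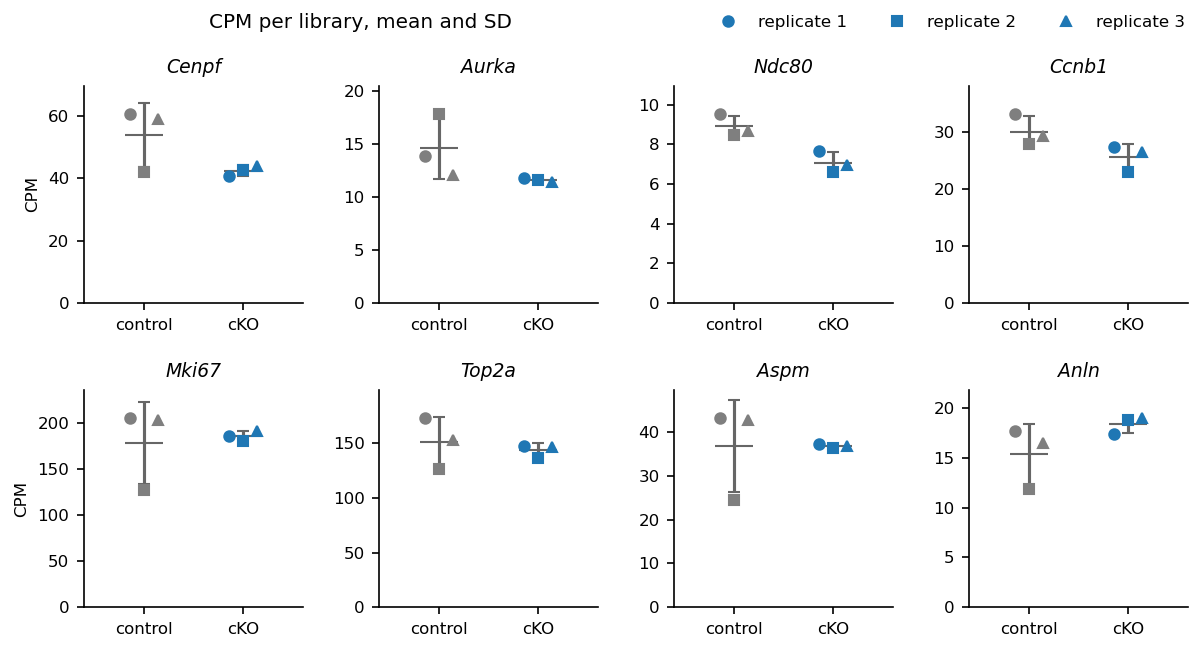
CPM of 8 genes in each library (points; circle, square and triangle are replicates 1, 2 and 3), with the group mean and SD as lines, and each axis starting at 0. The square of control 2 lies lowest among the controls in 7 of the genes and highest in Aurka.

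The spindle and cytokinesis genes held the 2 highest fold changes, those of Anln and Hmmr. With 1 library left out these ran from 0.10 to 0.38 and from 0.05 to 0.38, both lowest without control 2. Aspm, which keeps the spindle poles of radial glia focused, was at 43.2, 24.6 and 42.8 CPM in the controls and at 37.3, 36.3 and 36.9 in the cKO, with a mean of 36.8 in both groups. Anln, the contractile ring protein anillin, was at 17.7, 11.9 and 16.5 CPM against 17.4, 18.8 and 19.0 (log2 fold change 0.26, SE 0.17, edgeR adjusted p = 0.837). Hmmr, which organizes the spindle, was at 13.4, 8.02 and 13 CPM against 13.9, 12.3 and 14.8. Control 2 was the lowest library in all 3. Nusap1, a microtubule-binding protein, had the lowest log2 fold change of the 8 spindle genes, -0.28, and Kif11, Kif4, Tpx2 and Kif2c lay between -0.18 and -0.09. Kif15 was at 0.12. Kif4, on the X chromosome, is the only sex-linked member, and the fit without X and Y genes left 0 of the other 44 past an adjusted p of 0.05. Among the cytokinesis genes, Kif20b was the least abundant member by TPM and was at 18.2, 14.1 and 21.4 CPM against 16.0, 17.7 and 16.8. Kif20a, Prc1, Kif23 and Ect2 lay between -0.07 and 0.04.

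The 2 APC/C genes were both lower on average, with overlapping groups. Cdc20, the activator that starts anaphase, was at 36.4, 39.4 and 28.5 TPM in controls and 30.2, 33.2 and 30 TPM in cKO (log2 fold change -0.33, SE 0.18, edgeR adjusted p = 0.806). Its fold change was -0.14 without control 2 and -0.49 without control 3. Ube2c, the enzyme that places the first ubiquitin and the second most abundant member by TPM (68.8), was at 19.7, 23.9 and 18.4 CPM against 19.5, 17.1 and 17.6.

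The chromosome genes had a median near 0 (0.03). Mki67, whose protein is the Ki67 proliferation marker, was at 205, 127 and 203 CPM against 186, 180 and 191, so that control 2 lay below and controls 1 and 3 above all cKO libraries. Top2a, the topoisomerase that untangles chromosomes, was at 173, 127 and 153 CPM against 148, 137 and 147. The condensin gene Ncapd2 had the highest TPM of all members, 100, and was at 194, 199 and 178 CPM against 174, 193 and 174. Smc2, Smc4, Ncapg and Ncaph, the other condensin genes, had log2 fold changes from -0.07 to 0.10.

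**Figure D4:**
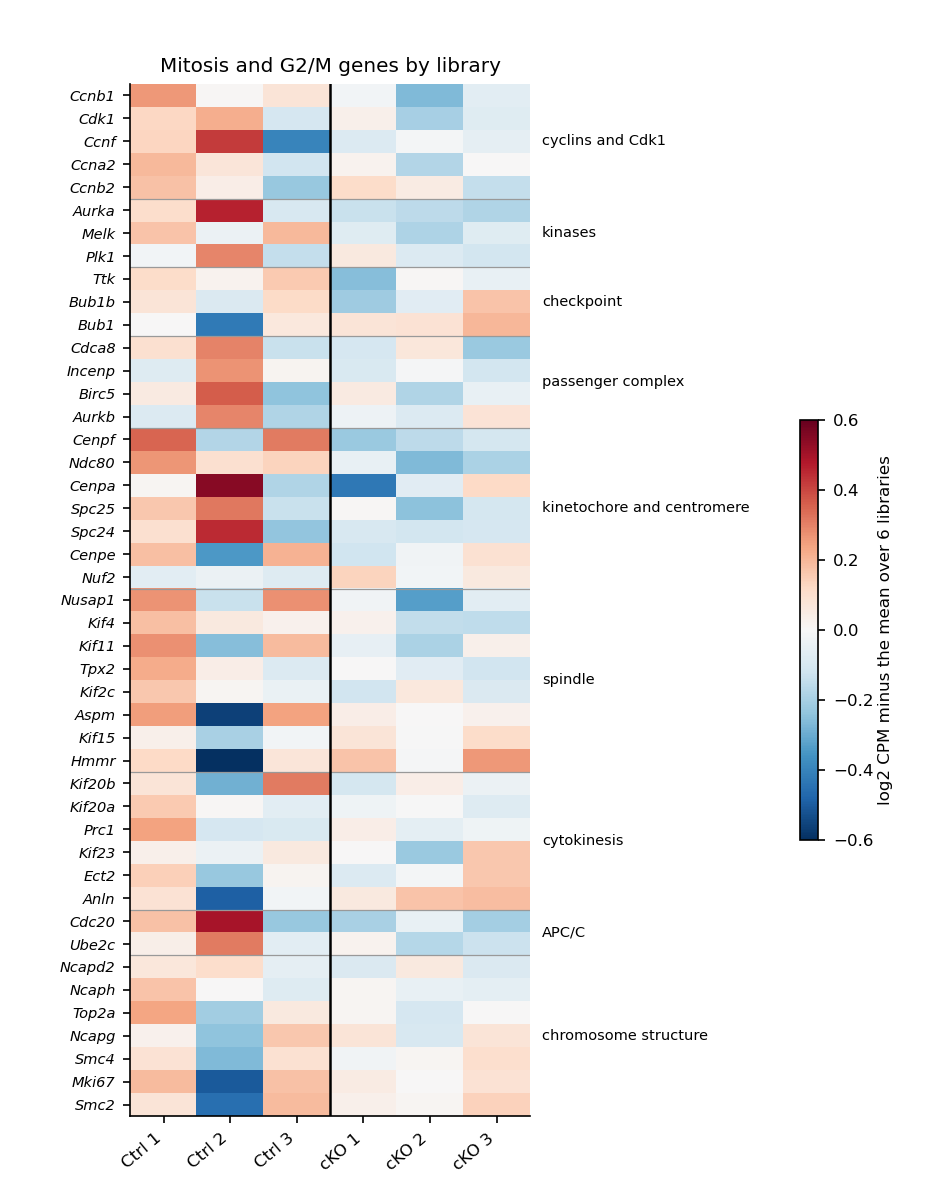
Each column is a library and each row a gene, colored by its log2 CPM minus the gene's mean over the 6 libraries (scale from -0.6 to 0.6). Control 1 is above the mean for 41 of 45 genes, and control 2 holds both the strongest red and the strongest blue cells.

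The control libraries differed more among themselves than the cKO libraries did. The median SD of log2 CPM over members was 0.205 in the controls and 0.0874 in the cKO, against 0.228 and 0.107 over all genes. Control 2 was the highest library for 14 members and the lowest for 15, and control 1 the highest for 15 and the lowest for 0. Over all genes tested, control 2 was the highest for 33.6% and the lowest for 33.9%, and control 1 for 9.73% and 11.0%. The deviation of control 2 from the mean of the other controls went with transcript length. It had a median of 0.20 in the 15 shortest members, -0.18 in the middle 15 and -0.32 in the 15 longest, by the mean length of the annotated transcripts. Across the 45 genes, which share the libraries and are not independent, Pearson's r with log2 length was -0.661 (Spearman's rho -0.594), and with GC content 0.764 (rho 0.77). Over 13318 genes it was -0.543 with length and 0.518 with GC. With the longest transcript in place of the mean, r with length was -0.687 for the members and -0.604 for all genes.

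**Figure D5:**
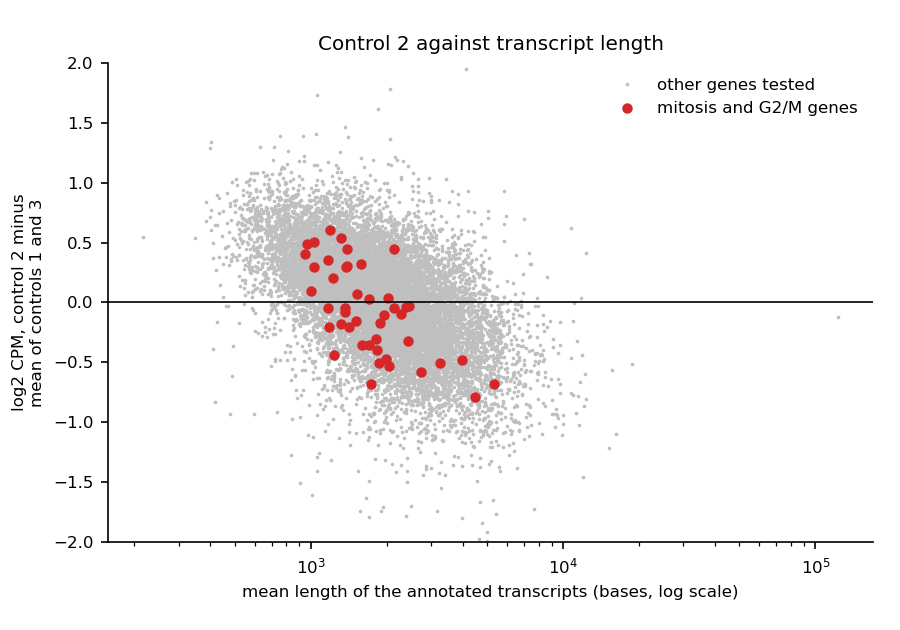
The x axis is the mean length of a gene's annotated transcripts on a log scale and the y axis the log2 CPM of control 2 minus the mean of controls 1 and 3. Red points are the 45 members and grey points the other genes tested, of which 13 lie outside the plotted range of ±2. Short members lie mostly above 0 and long ones below.

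The count of members lower at an unadjusted p under 0.05 changed with the libraries and with the correction, and so did the share of all genes. Without control 2 it was 7 of 45 (15.6%: Aspm, Ccnb1, Cenpf, Kif11, Melk, Ndc80 and Nusap1), where 6.55% of all genes tested in that fit were lower. Without control 3 it was 3 (6.67%: Aurka, Cdc20 and Spc25), where 7.97% were. Without control 1 it was 0, where 2.77% were, and without any 1 of the cKO libraries it was 0, where 1.89% to 2.23% were. With the correction for length and GC it was 5 (11.1%: Ccnb1, Cenpf, Kif11, Ndc80 and Nusap1), where 5.57% were with mean length and 6.45% with the longest transcript. In none of these fits was a member higher at that p, where 1.66% to 5.98% of all genes were with a library left out. With the correction that share was 5.93% with mean length and 6.23% with the longest transcript.

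Without control 2 the members' median log2 fold change was -0.09, as with it, and 35 of 45 genes were below 0 (77.8%), against 48.9% of all genes. With each library left out in turn, that median ran from -0.13 to -0.05, and it was nearest 0, at -0.05, without control 1. In control 1, 41 of the 45 genes were above their mean over the 6 libraries, against 24 and 22 in controls 2 and 3. On the log2 CPM scale, the members' median deviation from each gene's mean over the 6 libraries was 0.12 in control 1. It was 0.005 and -0.015 in controls 2 and 3, and -0.019, -0.057 and -0.045 in the cKO. Without control 2 the medians of the roles moved more than that of all members. That of the chromosome genes went from 0.03 to -0.07, with all 7 below 0, that of the kinetochore and centromere genes from -0.24 to -0.13, and that of the passenger genes from -0.14 to 0.00. Mki67 went from 0.06 to -0.14 and Aspm from 0.00 to -0.22, while Cenpa went from -0.27 to -0.03, Aurka from -0.33 to -0.16 and Cdc20 from -0.33 to -0.14. Leaving out 1 library at a time changed the sign of 18 members and moved 20 more by over 1.5 times, and 7 stayed within that: Ccnb1, Melk, Cenpf, Ndc80, Nuf2, Kif4 and Nusap1.

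Other cell cycle genes were set beside the members. Of 82 further mitosis genes, 64 (78.0%) had a log2 fold change below 0, against 49.4% of all genes tested. Their median was -0.10, and 0 passed an adjusted p of 0.05 by edgeR. At an unadjusted p under 0.05, 3 were lower, where 3.49% of all genes were: Cdc25c, the phosphatase that activates Cdk1, Psrc1 and Pbk. Their log2 fold changes were -0.39, -0.41 and -0.26. Of 46 DNA replication genes, 41 (89.1%) were below 0, with a median of -0.17. At the unadjusted p 3 were lower, beside the same 3.49% of all genes: Chaf1b, Lig1 and Rfc4, at -0.51, -0.36 and -0.42. Without control 2 the median of the replication genes was -0.08 and that of the further mitosis genes -0.09. The members' summed CPM over that of the replication genes was 1.23, 0.968 and 1.23 in the controls and 1.2, 1.19 and 1.21 in the cKO. Control 2 alone lay below 1, and the other controls lay above all cKO libraries. The 17 APC/C subunit and regulator genes had a median of -0.05, with Anapc5 lower at the unadjusted p (-0.33), and the 14 genes of mitotic transcription, among them Foxm1 and the NF-Y subunits, a median of -0.06 and no call at either p. Summed CPM was lower in every cKO library than in every control for the further mitosis, replication and APC/C lists. The further mitosis genes were at 2436, 2336 and 2404 against 2204, 2224 and 2254. In TPM the sums of these lists overlapped. The mitotic transcription sums overlapped in CPM and were higher in every cKO library in TPM.

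Of the 10 G1 cyclins, kinases and inhibitors (median -0.10), Ccnd2 and the inhibitor Cdkn1c (log2 fold change -0.56) were lower at an unadjusted p under 0.05. Of all genes tested, 3.49% were lower at that p, and 0 of the 10 passed an adjusted p of 0.05 by edgeR. The summed CPM of the 10 was lower in every cKO library than in every control, and their TPM sums overlapped. Ccnd2, the cyclin D2 of cortical progenitors, was at 412, 339 and 395 CPM against 289, 232 and 276 (log2 fold change -0.53, SE 0.13, edgeR adjusted p = 0.384). All cKO libraries were below all controls, and without control 2 it was -0.60 with an adjusted p of 0.0208 by edgeR. In that fit 122 of 13687 genes passed, where 10 of 13570 did with all 6 libraries. Whether the fold change of Ccnd2 differs from those of the mitosis genes was not tested.

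Cell type marker lists were compared in the same fit, and their part in the members' values was not tested. The median log2 fold change was -0.05 over 12 radial glia markers, 0.02 over 7 intermediate progenitor markers, -0.26 over 4 of the ganglionic eminence, -0.22 over 7 of oligodendrocyte precursors, 0.07 over 8 of microglia, 0.24 over 8 of endothelium and pericytes, -0.04 over 7 of red cells, 0.40 over 2 of meninges and choroid plexus, and -0.09 over 10 of cortical neurons. No marker passed an adjusted p of 0.05 by edgeR. At an unadjusted p under 0.05 there were 4, all higher: Pax6, Cdh5, Pdgfrb and Slc17a7. Of all genes tested, 3.14% were higher and 3.49% lower at that p. Without control 2, Slc17a7, a glutamate transporter of cortical neurons, passed (log2 fold change 0.69, edgeR adjusted p = 0.00576), where 122 of 13687 genes did. In that fit the radial glia and intermediate progenitor medians were -0.02 and 0.00, and the microglia median went from 0.07 to 0.22. Radial glia marker sums were 1850 to 2560 TPM in the controls and 2030 to 2390 in the cKO. The members' sum over the radial glia sum, in CPM, was 0.827 ± 0.0621 in the controls and 0.786 ± 0.0384 in the cKO (SD, n = 3), with overlapping groups.

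The table's strandedness is not given in the sources used here. Exons of 9 members overlap those of another gene of the table on the other strand (Ccna2, Cdca8, Kif4, Nusap1, Kif20a, Prc1, Cdc20, Ube2c and Ncapg). Plk1 overlaps Gm44985 on the other strand, which is not in the table. Without strand some of these members' reads could belong to the partner.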

How the data were processed

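Estimated counts, TPM and FPKM per gene and library were deposited by the authors in 1 table of 27 columns, of which 18 were used. The submitters' processing notes name HISAT2 2.2.1, Bowtie2 2.4.5, RSEM 1.3.1 and GRCm38/mm10. The estimated counts deposited by the authors are not normalized between libraries (89.4% are whole), while the authors' TPM and FPKM correct for length and depth. FPKM enters no result.

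Groups came from the genotype labels. Counts were rounded, filtered with filterByExpr, TMM-scaled and tested with edgeR 4.0.16 (quasi-likelihood, Benjamini-Hochberg over 13570 genes) in R 4.3.3. Fold changes are cKO over control, errors are SD or SE, and permutation tests are exact and two-sided. Totals of 15091951 to 16885451 estimated counts put 3 counts at 0.178 to 0.199 CPM, and intervals do not cover more than these libraries' spread. Biological variation between replicates, as edgeR's common coefficient, was 0.147. Replicates differed beyond counting noise in each group, with a chi-square per degree of freedom of 3.52 to 65.4.

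Members and lists were chosen with earlier results of these data known. Values in every library are given for Ybx1, for members past an unadjusted p of 0.05, for a fixed list of core genes, and for the 3 highest and 3 lowest fold changes and TPM values. Of other lists, the genes past an adjusted p of 0.05, some of the 3 lowest p-values and Ccnd2 are named; Melk, Ccnf, Ttk, Bub1 and Nuf2 were given by range or value because their groups or ranges stood out, chosen after their values were seen.

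Alternatives were the replicate block, RLE size factors, DESeq2 1.42.0, other filters, leaving out 1 library at a time, a fit of autosomal genes only, limma 3.58.1 on log2(TPM + 1) (recentred on all genes' median where directions are compared), and a smooth trend (mgcv 1.9.3) on transcript length and GC content removed from each library. Length and GC came from GENCODE M21 for 96.7% of genes. The planned correction used the mean over a gene's transcripts. A second version with the longest transcript was added after the first had been run and its results seen, because a mean over short fragments understates genes such as Ncapd2. Both are reported. The fits were also run on simulated counts. These had the same dispersion for every gene, no length or GC trend and no deviating library. The simulation therefore cannot check the correction, or the fits where a library such as control 2 stands apart. Coordinates are those of GENCODE M21 (GRCm38), promoter windows those of RefSeq, and plots used matplotlib 3.10.9 (Python 3.11.15).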

Additional observations from a re-analysis of the deposited data

How the results depend on the processing

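The members' median log2 fold change moved by less than the spread of the library medians (0.0535) under 16 of the 17 alternatives. That bound is wide beside the median of -0.09 itself, so staying within it does not show that the median is stable. On log2(TPM + 1) the members' median stayed within that bound after the all-gene shift of 0.14 was taken off, as was done where directions are compared. The TPM sums, the counts of genes with a higher mean TPM and the limma p-values were not recentred. As fitted, the members' median was 0.06. With each library left out, it ran from -0.13 to -0.05, the median of the other mitosis genes from -0.12 to -0.09 and that of DNA replication from -0.22 to -0.08. Of 764 member results under alternatives, 707 kept direction and side of the threshold, 55 changed sign and 2, both of Cenpf, newly passed. The sign was kept in all alternatives by 26 members, and by 37 in those with all 6 libraries. All genes past an adjusted p of 0.05 numbered 93 with DESeq2, 6 without X and Y genes, and 8 to 122 with a library left out (10 in the reported test). The length and GC correction gave 78 (57 with the replicate block) with mean length, and 151 (137 with the block) with the longest transcript, the version chosen after seeing the data. Members past it were 0 with mean length and 1, Cenpf, with the longest transcript, and 0 to 1 with a library left out. Members lower at an unadjusted p of 0.05 were 0 to 7 with a library left out, 5 (5 with the block) with mean length, 5 (6 with the block) with the longest transcript, and 0 with limma. The share of all genes lower at that p in the same fits was 1.89% to 7.97% with a library left out, 5.57% (5.82% with the block) with mean length, 6.45% (7.1% with the block) with the longest transcript, and 1.5% with limma. Values that changed sign with mean length, without and with the block, were Aspm -0.088 and -0.081, Aurkb 0.083 and 0.081, Ect2 -0.0057 and -0.0038, Kif20b 0.015 and 0.013, Mki67 -0.051 and -0.049, Ncapd2 0.016 and 0.019, Plk1 0.0061 and 0.003976. With the longest transcript they were Aspm -0.12 and -0.12, Aurkb 0.058 and 0.057, Ect2 -0.0072 and -0.0056, Mki67 -0.063 and -0.063. Aspm was -0.0028 with RLE, -0.0029 with DESeq2, -0.015 with no filter and -0.006038 with limma, and Ccnb2 -0.0027, -0.0021 and -0.016 with the first 3. With a library left out, the ranges were Aspm -0.22 to 0.13, Aurkb -0.13 to 0.12, Birc5 -0.27 to 0.031, Bub1b -0.18 to 0.022, Ccnb2 -0.10 to 0.09004, Ccnf -0.33 to 0.058, Cenpe -0.21 to 0.045, Cenpf -0.49 to -0.25, Ect2 -0.056 to 0.13, Kif20b -0.23 to 0.06045, Kif23 -0.12 to 0.067, Mki67 -0.14 to 0.17, Ncapg -0.072 to 0.12, Ncaph -0.12 to 0.0016, Plk1 -0.19 to 0.032, Prc1 -0.10 to 0.083, Smc2 -0.071 to 0.23, Smc4 -0.057 to 0.11, Top2a -0.18 to 0.042. Those that kept their sign but moved over 1.5 times were Cdk1 -0.25 to -0.093, Ccna2 -0.18 to -0.029, Aurka -0.45 to -0.16, Bub1 0.084 to 0.31, Ttk -0.24 to -0.11, Incenp -0.22 to -0.038, Cdca8 -0.28 to -0.068, Cenpa -0.41 to -0.03, Spc24 -0.39 to -0.044, Spc25 -0.35 to -0.13, Kif11 -0.30 to -0.05, Kif15 0.053 to 0.17, Kif2c -0.14 to -0.026, Tpx2 -0.19 to -0.039, Hmmr 0.05 to 0.38, Kif20a -0.12 to -0.0051, Anln 0.10 to 0.38, Cdc20 -0.49 to -0.14, Ube2c -0.27 to -0.08, Ncapd2 -0.13 to -0.044. The cause of these changes was not tested. Same-numbered libraries correlated at 0.0615 to 0.23, with 1 of 3 pairs over 0.1, so the numbers were not taken as pairs, though all 6 libraries correlated best with their own number. With the replicate block alone 11 genes passed, members 0, and the median was -0.09.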
